A study of Mus musculus with 9 samples.

Results

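The 10 genes described here act on collagen and other proteins of the extracellular matrix: the proteases Mmp2, Mmp9 and Mmp14, the inhibitors Timp1, Timp2, Timp3 and Timp4, and the collagen processing genes Serpinh1, P4ha1 and Pcolce. They were taken by name, as all probe sets that the array annotation lists to these symbols, and they make up 10 of the 18193 genes tested and 26 of 45037 probe sets. Testosterone mice were castrated and carried a 2.5 mg pellet that releases the hormone over 60 days, castration mice were castrated and carried a placebo pellet, and sham mice went through a mock operation and also carried a placebo pellet. The mice were young adults of the outbred CD-1 stock, and the gastrocnemius muscle, trimmed of fat and connective tissue, was taken after 14 days from animals that had not fasted. Each group had 3 Affymetrix arrays, 9 in all, and each array carried pooled RNA of 3 animals (4 µg each), so that 27 of the 36 mice of the study were used and single animals cannot be seen. The arrays are named by group and replicate number (testosterone 1), and the labels do not say that the numbers pair arrays across groups. Values are log2 expression after robust multi-array averaging (RMA), on which a difference of 1 is a factor of 2. Unless another probe set is named, each gene was read from its brightest one.

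Fibrillar collagen is built inside the cell and remodelled outside it. P4ha1, the catalytic alpha subunit of prolyl 4-hydroxylase, hydroxylates procollagen prolines, which makes the triple helix stable at body temperature. Serpinh1, also called Hsp47, is a chaperone of the endoplasmic reticulum that binds folded procollagen, and Pcolce, a secreted glycoprotein, speeds up the removal of the C-terminal propeptide by Bmp1. Mmp14 is a membrane-bound collagenase that also activates the gelatinase Mmp2, a step in which Timp2 takes part, and Mmp9 is the gelatinase best known from neutrophils and macrophages. The Timp proteins inhibit these metalloproteinases, and Timp3 is the one that stays bound to the matrix. In skeletal muscle this machinery belongs mainly to fibroblasts and other cells of the connective tissue between the fibres.

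No gene of the 10 passed an adjusted p of 0.05 in any of the 3 comparisons (limma, Benjamini-Hochberg adjustment over all 18193 genes), and neither did any other gene, so that 0.0% of all genes were called in each. The values that stood out most were those of Serpinh1, P4ha1 and Timp3. Serpinh1 averaged 7.20 ± 0.29 with testosterone, 7.57 ± 0.11 after castration and 7.42 ± 0.08 after sham surgery (SD, n = 3 each). P4ha1 averaged 6.17 ± 0.31 with testosterone, 6.54 ± 0.16 after castration and 5.88 ± 0.63 after sham surgery. Timp3 averaged 9.37 ± 0.26 with testosterone, 9.27 ± 0.11 after castration and 8.93 ± 0.23 after sham surgery.

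For these 3 genes the 250 bases before the RefSeq transcription start are printed because they are the members with an unadjusted p under 0.05 in one of the comparisons. They come from RefSeq on build GRCm38.p6 and run 5′ to 3′ on the strand of the gene, with a GC box (GGGCGG, or CCGCCC on the other strand) in capitals. Serpinh1 lies on the minus strand at chr7:99353240-99353489, P4ha1 on the plus strand at chr10:59323046-59323295 and Timp3 on the plus strand at chr10:86300162-86300411.
Serpinh1: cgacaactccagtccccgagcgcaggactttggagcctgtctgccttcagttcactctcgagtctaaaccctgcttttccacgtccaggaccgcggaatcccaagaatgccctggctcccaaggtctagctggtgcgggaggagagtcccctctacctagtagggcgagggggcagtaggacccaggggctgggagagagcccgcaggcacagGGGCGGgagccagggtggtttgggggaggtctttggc
P4ha1: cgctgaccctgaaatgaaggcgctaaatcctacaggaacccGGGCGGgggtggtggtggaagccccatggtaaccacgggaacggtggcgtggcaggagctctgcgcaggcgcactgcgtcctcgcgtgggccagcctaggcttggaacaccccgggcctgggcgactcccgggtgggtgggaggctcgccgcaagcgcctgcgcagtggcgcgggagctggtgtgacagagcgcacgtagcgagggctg
Timp3: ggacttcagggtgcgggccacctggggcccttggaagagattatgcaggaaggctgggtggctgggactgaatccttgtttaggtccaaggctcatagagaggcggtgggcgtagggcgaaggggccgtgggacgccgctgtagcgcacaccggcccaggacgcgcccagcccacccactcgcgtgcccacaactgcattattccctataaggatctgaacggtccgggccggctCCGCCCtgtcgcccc
The GC box began 37 bases before the start of Serpinh1, 209 before that of P4ha1 and 15 before that of Timp3. Of the 10 members 8 had a RefSeq window, and 7 of the 8 held a GC box, as did 32.7% of all 32851 windows of the same length. A CCAAT box (CCAAT) was found in 3 of the 8 windows and in 33.8% of all windows, and in Mmp14 a CCAAT box shares a base with a GC box. The heat shock element GAANNTTC, the AP-1 site TGANTCA, the TATA box TATAAA and the androgen response half-site AGAACA were searched on both strands and were in 0 of the 8, against 6.69%, 6.75%, 12.4% and 16.1% of all windows in that order. The GC content was 63.6% before Serpinh1, 69.6% before P4ha1 and 65.6% before Timp3, with a median of 52.4% over all windows. All 8 windows of the members lay above that median, the lowest being Timp4 at 53.6%. The GC box consists of G and C alone, and its share in windows of like GC content was not counted. These matches describe the letters only.

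Testosterone 2 and sham 2 stood apart from the rest, testosterone 2 with a mean correlation of 0.981 with the other arrays and sham 2 with 0.972, while the remaining 7 had 0.989 to 0.991. Sham 2 was the lowest of the 9 arrays for 6 of the 10 members and 17 of their 26 probe sets, against 30.6% of all genes and 26.3% of all probe sets. Of the members only Timp1, at percentile 49.7, was below the median of genes, while all genes include many dim ones. Leaving out dim genes, those with no group mean above the median of genes, moved the median differences over genes. That between castration and sham went from 0.010 to 0.096, and that between testosterone and sham from 0.007 to 0.093. The share of sham 2 among bright genes alone was not counted. Fibroblast markers averaged −0.31 from their gene means on testosterone 2 and −0.55 on sham 2 (mean log2 deviation over 8 of 8 genes), and adipocyte markers 1.19 on testosterone 2 and 0.94 on sham 2 (6 of 8 genes measured). The fibroblast markers did not move as a set. On testosterone 2 Dpt (9.04) and Pi16 (6.02) had their highest values of the 9 arrays, and Lum (4.69) and Mfap5 (4.56) their lowest. The 4 epidermal markers averaged 0.68 on sham 2, against −0.21 to 0.20 on the other 8 arrays. The 6 macrophage markers averaged 0.48 on testosterone 2, against −0.21 to 0.08 on the others. Csf1r (8.02), Lyz2 (8.01) and Cd68 (3.92) were highest on testosterone 2. Mrc1, at 3.67, lay below all other arrays but sham 2, and Adgre1 (3.72) and Cd163 (3.11) were at no extreme. On testosterone 2 the B cell markers averaged 1.76 (3 of 4 genes measured), and the 3′ probe set of the Gapdh control exceeded the 5′ one by 1.10, against 0.02 to 0.28 on the other 8 arrays. The muscle fibre markers, from Acta1 to Myh1, were all 8 above the median of genes and averaged between 13.20 and 13.27 on every array, as the tissue label has it. The part of these 2 arrays in any difference was not tested beyond leaving them out. Values without both arrays stand beside many of the differences below.

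**Figure D1:**
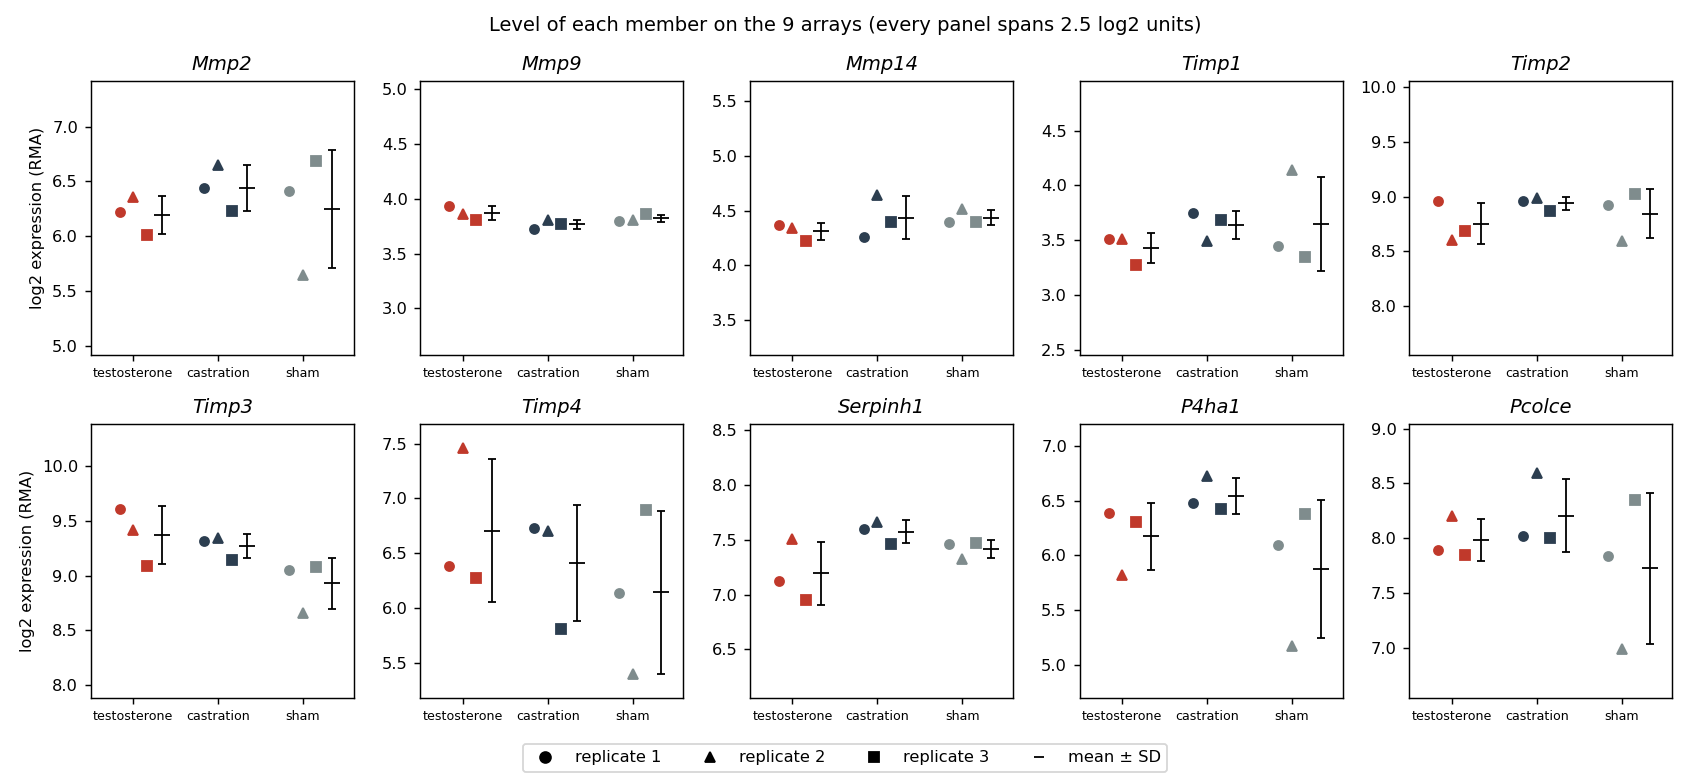
Level of each of the 10 members on the 9 arrays (log2 expression after RMA), with testosterone, castration and sham from left to right, symbols for the replicates and the mean ± SD beside them. Sham 2, the grey triangle, is the lowest point for Mmp2, Timp2, Timp3, Timp4, P4ha1 and Pcolce, and the castration arrays of P4ha1, at 6.42 to 6.73, lie above all others.

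Among the proteases Mmp2, the gelatinase that cuts denatured collagen and type IV collagen, had the widest spread. It read 6.22, 6.36 and 6.01 on testosterone 1 to 3, 6.44, 6.65 and 6.23 on castration 1 to 3, and 6.41, 5.64 and 6.69 on sham 1 to 3. The groups overlapped, and sham 2 and sham 3 held the lowest and the highest of all 9 values. Mmp2 differed by −0.24 between testosterone and castration (SE 0.25, 95% interval −0.81 to 0.32) and by −0.05 between testosterone and sham (−0.62 to 0.51). Without sham 2 and testosterone 2 the difference from sham was −0.44 (unadjusted p = 0.029, limma, adjusted p = 0.998), and that between castration and sham was −0.11 in place of 0.19.

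The membrane collagenase Mmp14 read 4.22 to 4.36 with testosterone, 4.26 to 4.64 after castration and 4.40 to 4.52 after sham surgery. All 3 testosterone arrays lay below the 3 sham arrays, by −0.13 on average (95% interval −0.37 to 0.12, adjusted p = 0.780 by limma), and castration overlapped both. Only 1 of its 3 probe sets was lower with testosterone than after sham surgery, while the other 2 were higher. Mmp9 read 3.81 to 3.93 with testosterone, 3.72 to 3.81 after castration and 3.79 to 3.86 after sham surgery, and its intervals lay within −0.22 and 0.26 in all 3 comparisons. The other Mmp9 probe set ran in the opposite direction each time. The values of Mmp9 were near the medians of the arrays, which were 3.15 to 3.26 over all probe sets, and 0 of the 7 measured neutrophil markers exceeded the median of genes on average, with S100a8 at 2.88 to 3.37. Of the 6 macrophage markers 4 exceeded it, with Lyz2 at 6.34 to 8.01.

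Timp3, the inhibitor that stays in the matrix, had the largest difference among the inhibitors relative to its error. Its level was 9.61, 9.42 and 9.08 on testosterone 1 to 3, 9.32, 9.34 and 9.14 on castration 1 to 3, and 9.05, 8.66 and 9.08 on sham 1 to 3. Every testosterone array and every castration array lay above the sham arrays, though testosterone 3 and sham 3 were nearly equal. The difference between testosterone and sham was 0.44 (SE 0.16, 95% interval 0.08 to 0.80), a ratio of 1.35, with an unadjusted p of 0.0230 and an adjusted p of 0.780 by limma. Between castration and sham it was 0.34 (−0.02 to 0.70, unadjusted p = 0.0639, limma), and between testosterone and castration 0.10 (−0.26 to 0.46). With sham 2 and testosterone 2 left out, the differences from sham were 0.28 for testosterone and 0.20 for castration, with intervals that held 0.

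The other probe sets of Timp3 did not all run the same way. All 4 were higher after castration than after sham surgery, by 0.11 to 0.44, and 3 of 4 were higher with testosterone than after sham surgery. Between testosterone and castration 2 were higher and 2 lower. Another Timp3 probe set, shown in the plot of probe set pairs, read 7.17, 4.99 and 6.69 on testosterone 1 to 3, 7.14, 6.87 and 7.02 on castration 1 to 3, and 6.96, 6.15 and 6.63 on sham 1 to 3. Testosterone 2 was the lowest of the 9 arrays there but high on the probe set used, at 9.42, and this was the array with the high 3′ to 5′ difference of Gapdh. Without sham 2 and testosterone 2 its difference between testosterone and castration was −0.08, against −0.72 with all arrays.

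Timp1, the inhibitor usually seen to increase with injury, read 3.27 to 3.51 with testosterone, 3.50 to 3.75 after castration and 3.35 to 4.14 after sham surgery. The value of 4.14 was that of sham 2, and without this array the difference between castration and sham was 0.24 (95% interval −0.01 to 0.50) in place of −0.004. Between testosterone and castration Timp1 differed by −0.21 (−0.66 to 0.23). Timp2, which links Mmp14 to Mmp2, read 8.61 to 8.96 with testosterone, 8.87 to 8.99 after castration and 8.59 to 9.02 after sham surgery. Its intervals lay within −0.49 and 0.40 in all 3 comparisons. Of its 6 probe sets 4 were lower with testosterone than after castration, and 5 were higher after castration than after sham surgery.

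Timp4, the member of the family best known from heart and muscle, was the most variable of the 10. It read 6.39, 7.46 and 6.27 on testosterone 1 to 3, 6.73, 6.70 and 5.80 on castration 1 to 3, and 6.13, 5.40 and 6.89 on sham 1 to 3. Testosterone 2 held the highest value and sham 2 the lowest, and each group spanned about 1 log2 unit or more. The difference between testosterone and sham was 0.56 with an interval of −0.46 to 1.58, and −0.18 (−0.996 to 0.63) without these 2 arrays. Its second probe set had testosterone 2 at 5.15, below the other 2 testosterone arrays at 5.57 and 5.44.

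Serpinh1, the procollagen chaperone, was lower with testosterone than after castration on both of its probe sets, though neither difference passed adjustment. It read 7.13, 7.51 and 6.95 on testosterone 1 to 3, 7.60, 7.67 and 7.46 on castration 1 to 3, and 7.46, 7.32 and 7.47 on sham 1 to 3. Testosterone 1 and 3 lay below all castration and all sham arrays, and testosterone 2 lay among them. The difference between testosterone and castration was −0.38 (SE 0.14, 95% interval −0.70 to −0.06, unadjusted p = 0.0257, adjusted p = 0.9998 by limma), a level 1.30-fold lower. Without sham 2 and testosterone 2 it was −0.54 (−0.76 to −0.32, adjusted p = 0.146), the smallest adjusted p of any member in any setting tried, and without testosterone 3 alone it was −0.25. Between testosterone and sham the difference was −0.22 (−0.54 to 0.10), and −0.43 without these 2 arrays (adjusted p = 0.998).

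The second probe set of Serpinh1 separated testosterone from castration without overlap. It read 6.72, 6.36 and 6.29 on testosterone 1 to 3, 7.21, 7.32 and 6.999 on castration 1 to 3, and 6.97, 5.94 and 6.72 on sham 1 to 3. Here testosterone 2 was low, in contrast to the value of 7.51 on the probe set used. The difference between testosterone and castration was −0.72 (95% interval −1.29 to −0.16, unadjusted p = 0.0181, adjusted p = 0.9999 over all probe sets, limma), and −0.67 without sham 2 and testosterone 2. The difference between castration and sham was 0.63 (unadjusted p = 0.0320, limma, adjusted p = 0.883) with all 9 arrays, and 0.33 without those 2. By its suffix, the first probe set may also bind other transcripts, and the second reads several transcripts of the same gene.

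**Figure D2:**
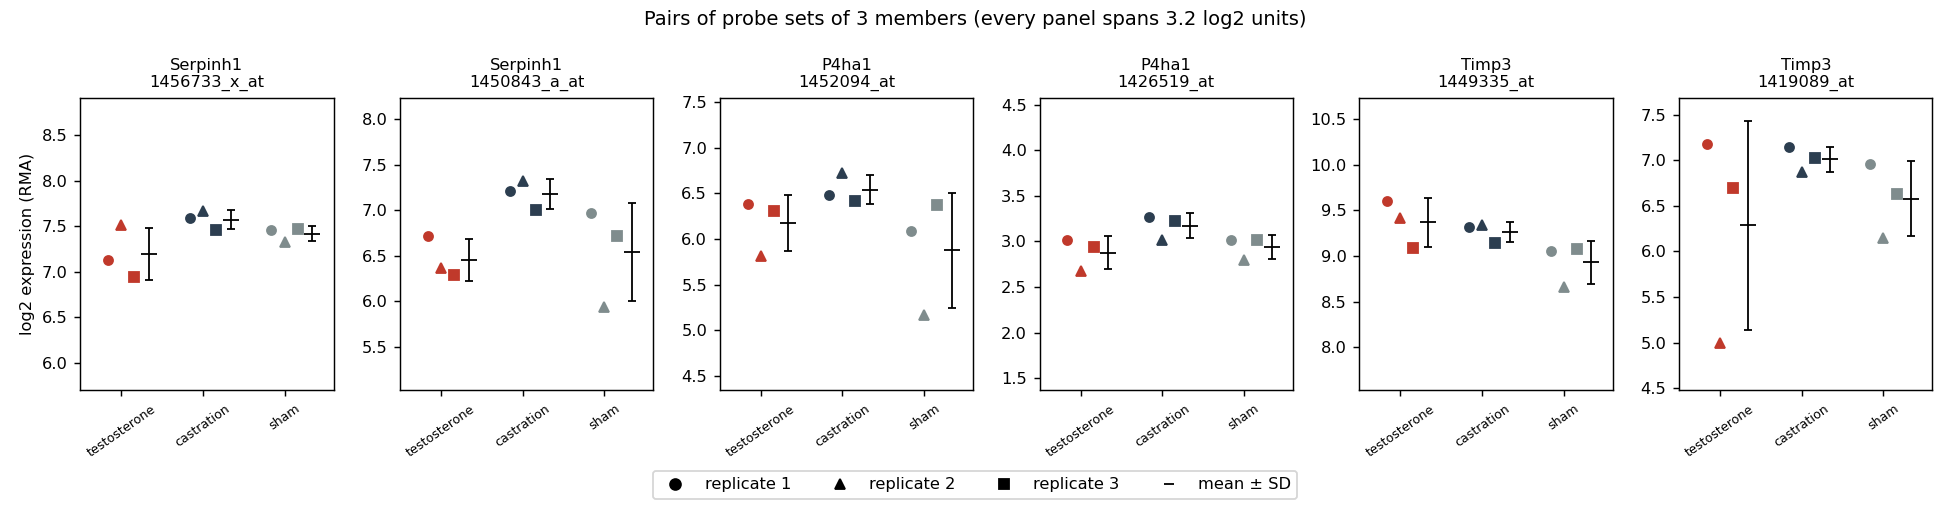
Values of 2 probe sets each for Serpinh1, P4ha1 and Timp3 on the 9 arrays (log2 expression after RMA), in the order testosterone, castration and sham, with the mean ± SD beside the points. The triangle of testosterone 2 is high on the first probe set of Serpinh1 and of Timp3 (7.51 and 9.42) and lies at 6.36 and 4.99 on the second.

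P4ha1, the prolyl 4-hydroxylase subunit, was highest on the castration arrays. It read 6.39, 5.82 and 6.31 on testosterone 1 to 3, 6.48, 6.73 and 6.42 on castration 1 to 3, and 6.09, 5.17 and 6.37 on sham 1 to 3. The castration arrays lay above both other groups without overlap, with testosterone 1 close below them. Castration and sham differed by 0.66 (SE 0.29, 95% interval 0.0018 to 1.33, unadjusted p = 0.0495, adjusted p = 0.838 by limma), a ratio of 1.58. Without sham 2 and testosterone 2 the difference was 0.31 (0.02 to 0.60, unadjusted p = 0.0389, adjusted p = 0.869). Testosterone and castration differed by −0.37 (−1.03 to 0.29), which was −0.19 without testosterone 2. Testosterone and sham differed by 0.29, which was −0.06 without sham 2 alone. The second probe set of P4ha1 read 2.67 to 3.02 with testosterone, 3.02 to 3.27 after castration and 2.79 to 3.02 after sham surgery, below or near the array medians.

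Pcolce, the enhancer of procollagen C-proteinase, read 7.89, 8.20 and 7.85 on testosterone 1 to 3, 8.02, 8.60 and 8.003 on castration 1 to 3, and 7.84, 6.99 and 8.35 on sham 1 to 3. The groups overlapped, and sham 2 lay far below all other arrays. Castration and sham differed by 0.48 (95% interval −0.24 to 1.21), which was 0.11 without sham 2. Testosterone and castration differed by −0.23 (−0.95 to 0.50), and both probe sets were lower with testosterone. Without castration 2, the highest array, this difference was −0.03. Testosterone and sham differed by 0.26 (−0.47 to 0.98), and by −0.22 without sham 2 and testosterone 2.

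Of the 10 genes, 3 were higher and 7 lower with testosterone than after castration, with a median difference of −0.20, where 51.7% of all genes were lower and the median of all genes was −0.01. The 7 were Mmp2, Mmp14, Timp1, Timp2, Serpinh1, P4ha1 and Pcolce, so that all 3 collagen processing genes were among them. With these 2 arrays (sham 2 and testosterone 2) left out the counts were 2 higher and 8 lower with a median of −0.17. A single member, Serpinh1, had an unadjusted p under 0.05, as had 3.48% of all genes, and 1 member, P4ha1, had all testosterone arrays below all castration arrays, as had 4.79% of all genes. Leaving out the 2 arrays called 0.148% of all genes after adjustment and 5.78% before it, and 0 and 1 of the members.

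After castration 7 members were higher than after sham surgery and 3 were lower, with a median of 0.17 and a median of 0.01 over all genes, of which 52.9% were higher. Over genes without the dim ones the median was 0.096. A single member, P4ha1, had an unadjusted p under 0.05, as had 4.72% of all genes, and Timp3 and P4ha1 had all castration arrays above all sham arrays, as had 5.17% of all genes. Without sham 2 and testosterone 2 the members' median was 0.07, with 6 higher and 4 lower, and 0 of the 10 passed while 0.0989% of all genes did (5.38% before adjustment, and 1 member). With testosterone 5 members were higher and 5 lower than after sham surgery, with a median of −0.003, where 47.9% of all genes were lower. Timp3 had an unadjusted p under 0.05, as had 4.35% of all genes. Timp3 was above sham on all testosterone arrays (2.83% of all genes) and Mmp14 below it (3.64%). Without the 2 arrays 3 were higher and 7 lower, 2 members (Mmp2 and Serpinh1) had an unadjusted p under 0.05, as had 3.13% of all genes, and 0.0% of all genes passed. These comparisons share arrays: each group enters 2 of the 3. In the F test over the 3 groups 0.0% of all genes passed and 3.64% had an unadjusted p under 0.05, while the smallest unadjusted p among the members was 0.054, that of Timp3.

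**Figure D3:**
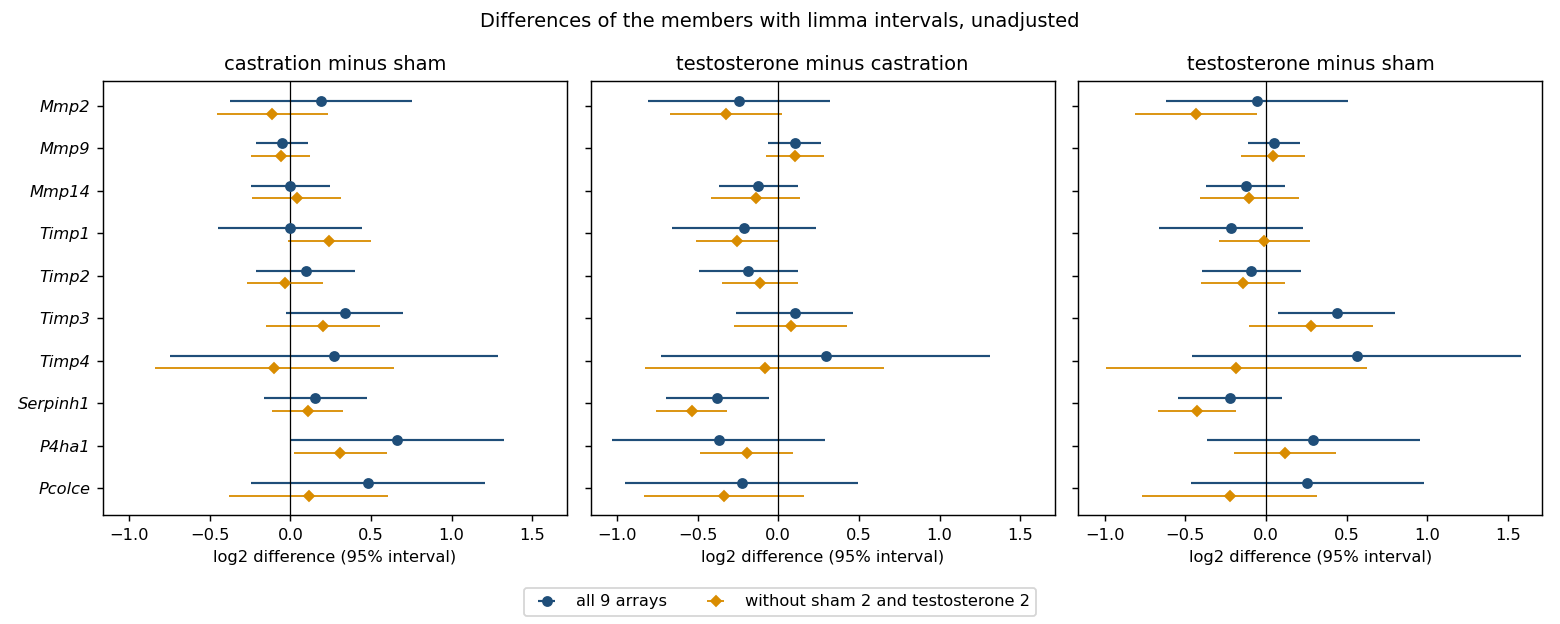
Difference of each member on the log2 scale with its 95% limma interval, unadjusted, in the 3 comparisons, from all 9 arrays (circles) and without sham 2 and testosterone 2 (diamonds). Serpinh1 lies at −0.38 and −0.54 between testosterone and castration, and Timp4 has the widest intervals.

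Over all 26 probe sets of the members, 20 were lower with testosterone than after castration and 6 higher, where 50.3% of all probe sets were lower. These counts are not independent, since the probe sets of a gene are listed to the same gene. In Mmp2, Mmp14, Serpinh1, P4ha1 and Pcolce every probe set was lower with testosterone than after castration, and in Mmp9, Timp2, Timp3 and Timp4 the probe sets disagreed. Of the 26, 3 had an unadjusted p under 0.05 (2 of Serpinh1 and 1 of P4ha1), as had 3.02% of all, and 2 had all testosterone arrays lower, as had 4.09% of all. After castration 22 of the 26 were higher than after sham surgery, where 50.2% of all probe sets were higher. That share takes in dim probe sets, and over genes without the dim ones the median difference was 0.096, against 0.010 over all genes. The count of 22 also leans on sham 2, the lowest array for 17 of the 26. With sham 2 and testosterone 2 left out, both Mmp2 probe sets (−0.11 and −0.31) and every Timp2 probe set were lower after castration. Both probe sets of Serpinh1 (0.11 and 0.33) and of P4ha1 (0.31 and 0.15) stayed higher. Between castration and sham 2 of the 26 had an unadjusted p under 0.05 (4.19% of all) and 3 were higher without overlap (4.26% of all). Against sham, 12 were lower with testosterone and 14 higher, where 49.9% of all were lower, and 1 had an unadjusted p under 0.05 (4.75% of all). Without overlap 1 was higher (3.11% of all) and 1 lower (3.71% of all). Leaving out sham 2 and testosterone 2 changed the numbers with an unadjusted p under 0.05. They were then 4 between testosterone and castration, 1 between castration and sham and 4 between testosterone and sham. The share of all probe sets was not counted in that setting, and the smallest adjusted p of the 26 was 0.218 (limma). None of the 26 passed adjustment over all probe sets in any comparison, and 0.0% of all probe sets did.

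The collagens, fibronectin and elastin on which these proteins act gave lower values with testosterone than after castration in 11 of 12 genes, with a median of −0.42. Over all genes 51.7% were lower. Of the 12, 0 passed adjustment, and 4 had an unadjusted p under 0.05, as had 3.48% of all genes. Col1a1, the alpha 1 chain of type I collagen that Serpinh1 and P4ha1 help to fold, read 8.31, 7.92 and 8.11 on testosterone 1 to 3, 9.42, 9.57 and 9.09 on castration 1 to 3, and 9.39, 7.95 and 9.31 on sham 1 to 3. Every testosterone array lay below every castration array, and sham 2 lay with the testosterone arrays. Its difference between testosterone and castration was −1.24 (95% interval −2.04 to −0.45, adjusted p = 0.873 by limma). Without sham 2 and testosterone 2 this difference was −1.15 (adjusted p = 0.0473 by limma). Col1a1 was then the 1 gene of the 12 that passed, where 0.148% of all genes did. Col3a1 differed by −0.57 (adjusted p = 0.635) and Col6a2 by −0.36 (adjusted p = 0.9998). Against sham, 10 of 12 were lower with testosterone, with a median of −0.24, where 47.9% of all genes were lower. The 3 with the smallest p were Col3a1 at −0.36, Col1a1 at −0.77 and Col6a2 at −0.30. Without sham 2 and testosterone 2, 12 of 12 were lower with a median of −0.50. Col3a1 was then at −0.55, Col1a1 at −1.14 and Col6a2 at −0.55 (0 passed). Castration against sham gave higher values in 11 of 12 (52.9% of all genes), with a median of 0.24, but 6 of 12 and −0.02 without sham 2 and testosterone 2. The 3 with the smallest p there were Col6a3 at 0.50, Col4a2 at 0.30 and Eln at −0.29, against 0.14, 0.09 and −0.41 in that order without these 2 arrays.

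Of 30 other collagen processing genes 26 had a probe set of their own. With testosterone 18 of these were lower and 8 higher than after castration, with a median of −0.07, where 51.7% of all genes were lower. Without sham 2 and testosterone 2 the counts were 21 and 5. Of the 26 genes 0 passed, and the 3 with an unadjusted p under 0.05 (3.48% of all genes) were lower. They were Crtap, a partner of prolyl 3-hydroxylase, at −0.59, and the lysyl hydroxylases Plod2 at −0.54 and Plod1 at −0.26. After castration 19 were higher and 7 lower than after sham surgery (median 0.07, 0 passed), where 52.9% of all genes were higher. Bmp1 at −0.38, the transcription factor Creb3l1 at −0.20 and Plod2 at 0.46 were the 3 with the smallest p. With sham 2 and testosterone 2 left out, 16 were higher and 10 lower (median 0.04), with Bmp1 at −0.20, Creb3l1 at −0.19 and Plod2 at 0.31. Bmp1, the C-proteinase that Pcolce enhances, also had the smallest p between testosterone and sham, where 13 were higher and 13 lower (median −0.01), but 7 higher and 19 lower (median −0.13) without these 2 arrays. It read 4.40, 4.00 and 3.99 on testosterone 1 to 3, 4.43, 4.19 and 4.43 on castration 1 to 3, and 4.59, 5.09 and 4.51 on sham 1 to 3. All testosterone and castration arrays of Bmp1 lay below the sham arrays, and it differed by −0.60 between testosterone and sham (unadjusted p = 0.00815, adjusted p = 0.780 by limma), and by −0.36 without sham 2 and testosterone 2. Creb3l1 at −0.26 and P3h4 at 0.22 came next.

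Of 37 other matrix proteases 32 were measured, and 16 were higher and 16 lower with testosterone than after castration (median −0.01, 0 passed), or 13 and 19 without sham 2 and testosterone 2. The 3 with the smallest p were the lysosomal protease Ctsb at −0.30, the fibroblast protease Fap at −0.42 and the sheddase Adam17 at −0.40, the last at −0.22 without these 2 arrays. After castration 12 were higher and 20 lower than after sham surgery (median −0.04, 0 passed), with Adamts9 at 0.37, Fap at 0.31 and Adam9 at 0.60 named by the same rule. Without the 2 arrays 15 were higher and 17 lower, Adamts9 was at 0.26, Fap at 0.18 and Adam9, which read 5.99 on sham 2 and 6.93 to 7.77 on the other arrays, at 0.14. With testosterone 14 were higher and 18 lower than after sham surgery (median −0.02, 0 passed), with the collagen-degrading cathepsin Ctsk at −0.32, Adam19 at −0.22 and Ctsb at −0.22. Leaving out the 2 arrays gave 13 higher and 19 lower (median −0.06), with Ctsk at −0.31, Adam19 at −0.15 and Ctsb at −0.13. Of 8 other genes from families of protease inhibitors 6 were measured and 0 passed in any comparison. The list goes by family, and no inhibiting action of Serpinf1 or Spock2 is implied. Reck, a membrane-bound inhibitor of metalloproteinases, differed by −0.16 between testosterone and castration, Serpinf1 by −0.53 and the cysteine protease inhibitor Cst3 by −0.10. There 5 of 6 were lower, against 51.7% of all genes, and Cst3 was at −0.01 without the 2 arrays. Against sham, 6 of 6 were lower with testosterone (47.9% of all genes), with Spock2 at −0.61, A2m at −0.18 and Reck at −0.05. Without the 2 arrays 5 of 6 were lower, with Spock2 at −0.39, A2m at −0.01 and Reck at −0.04. Castration against sham gave lower values in 3 of 6, with Spock2 at −0.51, Serpinf1 at 0.47 and Reck at 0.11, and without the 2 arrays in 2 of 6, with Spock2 at −0.08, Serpinf1 at 0.09 and Reck at 0.07.

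**Figure D4:**
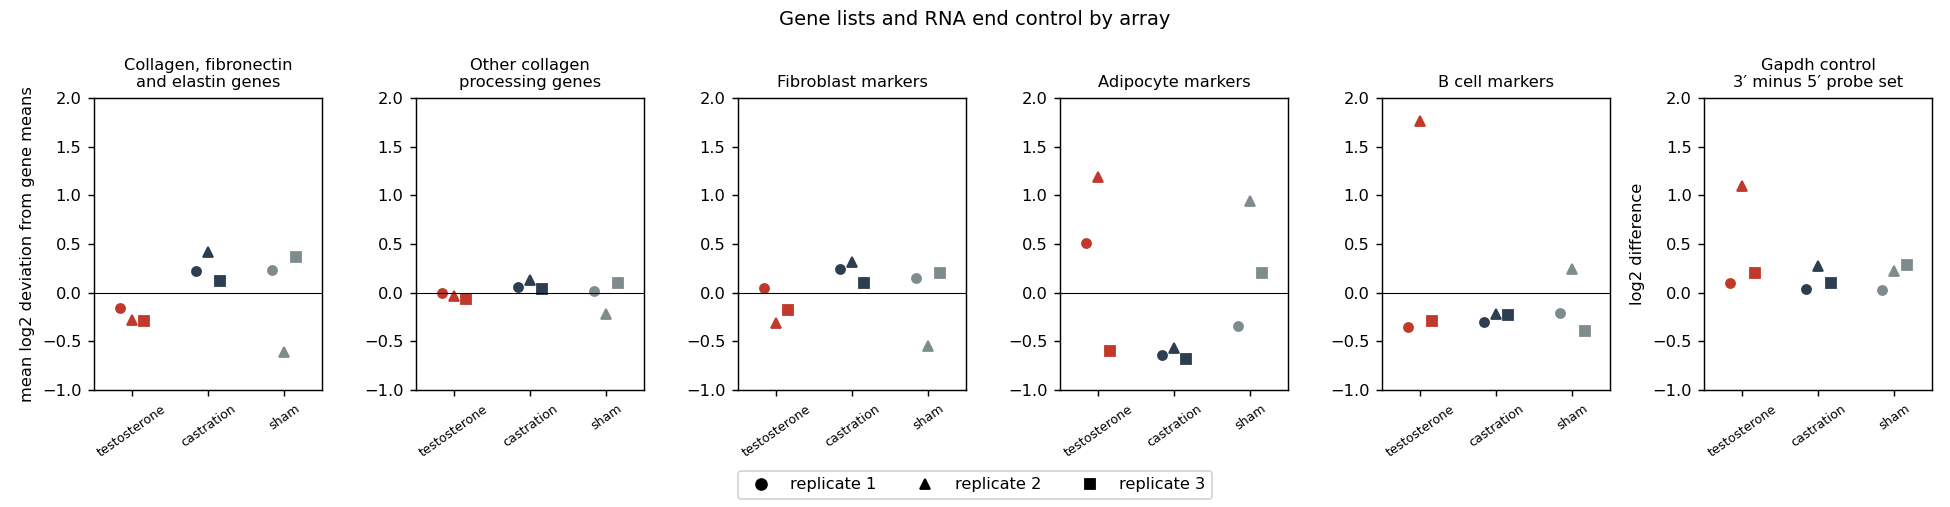
Mean log2 deviation from the gene means for 5 gene lists on the 9 arrays, and in the last panel the difference between the 3′ and the 5′ probe set of the Gapdh control. The matrix genes lie between −0.30 and −0.16 on the testosterone arrays and between 0.12 and 0.41 on the castration arrays, and sham 2 lies at −0.61.

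Markers of the connective tissue cells that make such transcripts were read on the same arrays. The 8 fibroblast markers averaged 0.05, −0.31 and −0.18 on testosterone 1 to 3, 0.24, 0.31 and 0.09 on castration 1 to 3, and 0.15, −0.55 and 0.20 on sham 1 to 3. All 3 testosterone arrays lay below all castration arrays on this average. Of the 8 markers 5 were lower with testosterone, where 51.7% of all genes were lower (7 of 8 without sham 2 and testosterone 2, 0 passed). The other 3, Pdgfra, Dpt and Pi16, averaged higher with testosterone. Lum, one of the lower ones, read 5.94, 4.69 and 5.77 on testosterone 1 to 3 and 7.04, 6.91 and 7.01 on castration 1 to 3. The 7 tendon markers averaged 0.07, −0.28 and −0.22 on testosterone 1 to 3, 0.24, 0.46 and 0.20 on castration 1 to 3, and 0.10, −0.79 and 0.23 on sham 1 to 3, and 6 of the 7 were lower with testosterone than after castration (0 passed). All 8 endothelial markers were lower with testosterone than after castration, as were 51.7% of all genes, with a median of −0.25 (0 passed). Of the 6 pericyte and smooth muscle markers 4 were higher and 2 lower with testosterone than after castration, with a median of 0.04 (0 passed). The adipocyte markers ran the other way, at 0.51, 1.19 and −0.60 on testosterone 1 to 3 and −0.65, −0.57 and −0.68 on castration 1 to 3 (sham 1 to 3 read −0.34, 0.94 and 0.20), with 6 of 6 higher with testosterone (0 passed). In whole muscle RNA, fewer connective tissue cells and less RNA of these genes per cell cannot be told apart, and the part of either in the values of the members was not tested.

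The genes whose levels followed each member most closely over the 9 arrays were found by Pearson correlation with all other genes. They are a description of these 9 arrays, which share the deviations of sham 2 and testosterone 2, and the highest of so many coefficients is high by selection. P4ha1 went with Rftn1 (r = 0.990, and 0.979 over the 7 arrays without sham 2 and testosterone 2), Mtus1 and Cept1. Pcolce went with Pls3 (0.985, and 0.990 over 7 arrays), Creb3l2 and Clasp2. Serpinh1 went with Pabpc5 (0.919, and 0.954 over 7 arrays), Taf5 and Tnnc2. Mmp2 went with the basement membrane laminin gene Lama4 (0.969), Olfr140 and Ndn, Mmp9 with Mef2d (0.971), Pold2 and Trim63, and Mmp14 with Med11 (0.938), Asap1 and 2810030D12Rik. Among the inhibitors Timp1 went with Trim36 (0.972), Tff3 and P2rx7, and Timp2 with Cavin1 (0.960), Dpp8 and the fibronectin gene Fn1. Timp3 went with Gulp1 (0.964), Nt5dc1 and Mbtd1, and Timp4 with Rab11fip5 (0.974), Stx5a and Ptbp3.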

How the data were processed

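RNA of gastrocnemius muscle was measured on 9 Affymetrix arrays, 3 per group. The authors deposited 1 table of log2 expression values for 45101 probe sets, made with RMA per the submitters' processing notes. RMA includes a normalisation between arrays, so that a shift of most genes may not be seen in full. The deposited values still differed in distribution, with array medians of 3.15 to 3.26. Over the 9655 genes left without dim ones the median difference between castration and sham was 0.096, against 0.010 over all genes. The RMA version and genome build are not given in the sources used here. The 64 control probe sets were left out of the tests. Gene symbols came from the platform annotation: 34945 probe sets had 1 gene, 932 several, and 18193 genes were tested, each on the probe set with the highest mean. Groups came from the sample labels. limma 3.58.1 (R 4.3.3, lmFit and eBayes) was fitted to all 9 arrays with group as the only term, with Benjamini-Hochberg adjustment over all genes and a threshold of 0.05, two-sided. It was tested on simulated data. A second fit held all 45037 probe sets. The number of arrays limits the precision, and p-values rest on how far pooled samples of 3 animals differ within a group. The members, lists and tests were chosen with earlier results of these data known. All members are named, with the 3 genes of each other list that had the smallest p in a comparison and the 3 genes most correlated with each member. Alternatives changed the probe set rule, filter, scaling, spread model and arrays. Leaving out sham 2 and testosterone 2 together was chosen after seeing the data.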

Additional observations from a re-analysis of the deposited data

How the results depend on the processing

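No member passed an adjusted p of 0.05 under any of the 654 alternatives of the 30 differences, and the smallest adjusted p was 0.146 (limma). The sign turned in 37 of these, in 16 of the 30 differences. Between castration and sham, renewed quantile normalisation gave −0.0017 for Mmp2, −0.0041 for Timp2 and −0.0042 for Serpinh1. Median centring gave 0.029 for Mmp14 and 0.027 for Timp1, array weights gave 0.21 for Timp1, and the mean of probe sets gave 0.062 for Mmp14. Leaving out sham 2 and testosterone 2 gave −0.11 for Mmp2, 0.038 for Mmp14, 0.24 for Timp1, −0.033 for Timp2 and −0.10 for Timp4. Between testosterone and castration the mean of probe sets gave −0.034 for Mmp9, −0.23 for Timp3 and −0.041 for Timp4, and leaving out both arrays gave −0.083 for Timp4. Between testosterone and sham the mean of probe sets gave −0.058 for Mmp9 and 0.029 for Timp2, and leaving out both arrays gave −0.18 for Timp4 and −0.22 for Pcolce.

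With 1 array left out at a time, differences between castration and sham ran from −0.11 to 0.41 for Mmp2, −0.11 to 0.084 for Mmp14, −0.15 to 0.24 for Timp1, −0.033 to 0.18 for Timp2 and −0.10 to 0.65 for Timp4. Those between testosterone and castration ran from −0.018 to 0.24 for Timp3 and −0.083 to 0.51 for Timp4. Those between testosterone and sham ran from −0.36 to 0.17 for Mmp2, −0.37 to 0.028 for Timp1, −0.061 to 0.54 for P4ha1 and −0.11 to 0.57 for Pcolce.

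Over all genes, where 0 passed (859, 633 and 791 had an unadjusted p under 0.05 between castration and sham, testosterone and castration, and testosterone and sham), some alternatives called a few. Between castration and sham 2 genes passed with the mean of probe sets, 5 with quantile normalisation, 2 with an intensity trend, 174 with array weights and 18 without sham 2 and testosterone 2. Between testosterone and castration 12 passed with only the 6 arrays compared, 2 with the mean of probe sets, 9 without dim genes, 22 with quantile normalisation, 12 with an intensity trend, 59 with array weights and 27 without sham 2 and testosterone 2. With 1 array left out the counts were 0 to 7 between castration and sham (7 without sham 2), 0 to 28 between testosterone and castration (28 without sham 2, 3 without sham 1) and 0 to 1 between testosterone and sham (1 without testosterone 3). The F test called 25 without sham 2 and testosterone 2. The causes were not tested.

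With the replicate block 0 genes passed in each comparison, and 840 had an unadjusted p under 0.05 between castration and sham. Deviations of arrays with the same number correlated between −0.49 and 0.27, and those with different numbers between −0.34 and 0.54. The labels state no pairing, and whether arrays of the same number share a batch was not tested. Serpinh1 and Pcolce have no probe set free of a suffix, so that alternative gives no value for them. Near the array medians, as for Mmp9, Timp1 and the second P4ha1 probe set, the signal is too low for a difference of this size to be read firmly.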
